A study of Mus musculus with 24 samples.

Results

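The genes described here are 10 hypoxia-responsive genes, *Hilpda*, *Slc2a1*, *Hk2*, *Pfkfb3*, *Ldha*, *Vegfa*, *Egln3*, *Bnip3*, *Ndrg1* and *Ankrd37*, of 24411 genes counted by RNA-seq in each of 24 mouse liver libraries. They were found by symbol, and all 10 were present. *Hilpda* and *Slc2a1* were chosen by their counts, which were lower in LKO than in control livers over 12 to 96 h after an overdose of acetaminophen (APAP), and the other 8 as known targets of the same transcription factors. The difference between LKO and control pools after APAP is therefore given as a description without a test, and tests are kept for the differences at 0 h and for the change with time averaged over both genotypes.

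LKO mice carried floxed *E2f7* and *E2f8* alleles deleted by Alb-Cre, which acts from before birth in hepatocytes and in bile duct cells that share their origin, and their controls (labelled WT) lacked Cre. HKO mice carried the same floxed alleles and received AAV8-TBG-Cre, which is active in hepatocytes, at 2 months of age, and their controls received AAV8-TBG-Null. All mice were male and 2.5 months old and were fasted for about 16 h. The methods give a mixed, mainly FVB background with an R26R-mTmG reporter for the LKO line. For HKO mice they name only floxed mice, in which the paper also examined the reporter. At 0 h, before any APAP, single mice were sequenced, 4 control and 4 LKO in the LKO cohort and 3 Null control and 3 HKO in the HKO cohort. Mice given 300 mg/kg APAP were sequenced as pools, each holding the RNA of 3 mice, with 1 control and 1 LKO pool at each of 12, 24, 48, 72 and 96 h and no HKO mice. Pools and single mice cannot be told apart from treated and untreated livers, and because whole liver was sequenced, fewer cells of a type and less RNA per cell cannot be told apart either. The paper also reports deaths among control but not LKO mice at this dose, and mainly diploid hepatocytes and less necrosis in LKO livers. Their part in the differences between control and LKO pools was not tested.

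In cells with enough oxygen, prolyl hydroxylases mark the alpha subunits of hypoxia-inducible factor (HIF) for capture by VHL and degradation, and when oxygen is short the alpha subunit survives, pairs with ARNT and binds a short core motif near its targets. Those targets raise glucose uptake and glycolysis, vessel growth, mitophagy and fat storage, and they include the hydroxylases that close the loop. In the liver oxygen falls from the portal to the central vein, and APAP is converted to its toxic product mainly in the hepatocytes around the central vein.

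The core HIF motif was searched as ACGTG or GCGTG on either strand in the 250 bases before each RefSeq transcription start (GRCm38.p6), and promoter entries were found for 9 of the 10 genes, all but *Ndrg1*. ACGTG or GCGTG stood in 11 of their 13 promoters and in at least 1 promoter of each of the 9 genes, against 38.6% of all 32851 promoters. ACGTG alone stood in 10 of 13, against 16.6% of all, and 3 genes, *Pfkfb3*, *Ldha* and *Bnip3*, held it within the palindrome CACGTG (6.02% of all), where the motif reads on both strands. No binding was measured, and a match is a description of the letters only. For the genes with the largest changes and for 2 genes with small changes, *Bnip3* and *Egln3*, 1 match is shown with up to 12 bases on either side, written 5′ to 3′ on the gene's strand with the motif in capitals.
Hilpda: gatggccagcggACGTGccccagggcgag
Slc2a1: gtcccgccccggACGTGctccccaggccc
Ldha: ggcccagcctacACGTGggttcccgcacg
Pfkfb3: ctccgcgccgtgACGTGccaagctgtgac
Bnip3: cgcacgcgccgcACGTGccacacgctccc
Egln3: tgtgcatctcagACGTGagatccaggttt
The window of *Hilpda* lay at chr6:29272571-29272599 on the plus strand, with its motif 43 bases before the nearer of its 2 listed starts. The window of *Slc2a1* lay at chr4:119108697-119108725 (plus strand, 36 bases before the start) and that of *Ldha* at chr7:46845745-46845773 (plus strand, 47 bases). Those of *Pfkfb3* (chr2:11553973-11554001, 60 bases), *Bnip3* (chr7:138909597-138909625, 107 bases) and *Egln3* (chr12:54204087-54204115, 229 bases) lay on the minus strand. So the same letters stood before genes that rose, fell or did not pass a test after APAP.

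Levels are normalised read counts (CPM, counts scaled by TMM to the same total of reads on genes), set separately in the 18 libraries of the LKO cohort and the 6 of the HKO cohort. Reads on genes ranged from 12665686 to 19499897 per library, and the lowest level treated as detected, 3 counts, was worth 0.154 to 0.237 CPM (counting error only). The control pool at 12 h stood apart with 13.6% of reads on no feature, against at most 10.9% in the other libraries of its cohort. The 12 h counts of called genes among the 10 and in the HIF, glycolysis, VEGF and PPAR-alpha lists are given with and without it. Control replicate 3 at 0 h had the lowest depth, with 20.6% of its reads unmapped and 39.9% naming no gene, and leaving it out changed no call of the 10 genes in any comparison it enters. Hepatocyte markers such as *Alb* and *Apoa1* summed to 55170 to 119300 CPM in the 8 mice of the LKO cohort at 0 h and to 69950 to 142000 CPM in the pools, so the libraries held liver RNA throughout. The whole-gene count did not show the deletion. *E2f8* stood at 11.7 to 18.9 CPM in control and 17.8 to 34.4 CPM in LKO mice and at 14.5 to 25.7 CPM in Null control and 30.1 to 82.0 CPM in HKO mice, and *E2f7* was at most 1.30 CPM at 0 h. Since reads outside the floxed exons are counted too, these counts do not check the genotype.

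At 0 h the genes of energy use stood at very different levels, which are compared here as CPM per kilobase of exon in the 8 mice of the LKO cohort. *Ldha*, the lactate dehydrogenase subunit that turns pyruvate to lactate, was the highest of the 10 (194 to 246 CPM per kilobase), followed by the mitophagy receptor gene *Bnip3* (63.5 to 140) and the angiogenic ligand gene *Vegfa* (34.9 to 52.0), and these 3 ranges did not overlap. *Pfkfb3*, whose product makes the activator of phosphofructokinase (4.68 to 22.2), overlapped *Egln3*, a HIF prolyl hydroxylase (3.31 to 6.09). *Slc2a1*, the GLUT1 glucose transporter (1.69 to 6.35), and *Ndrg1*, a stress-response gene (1.61 to 6.21), overlapped *Egln3*, each other and *Hilpda*, whose product coats lipid droplets and inhibits lipolysis (0.950 to 2.77). *Ankrd37*, an ankyrin-repeat gene (0.170 to 0.831), and *Hk2*, an inducible hexokinase (0.0293 to 0.233), were lowest and overlapped each other.

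Some of the liver's own relatives of the 10 genes were at higher levels at 0 h. The transporter gene *Slc2a2* (38.8 to 67.9 CPM per kilobase) lay above *Slc2a1* with no overlap. The hydroxylase gene *Egln1* (9.37 to 10.8) also lay above *Egln3* with no overlap. *Pfkfb1* (6.80 to 16.9) overlapped *Pfkfb3*, while *Ldhb* (0.754 to 2.11), *Bnip3l* (20.4 to 30.8) and *Vegfb* (6.24 to 18.2) were below *Ldha*, *Bnip3* and *Vegfa*.

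**Figure D1:**
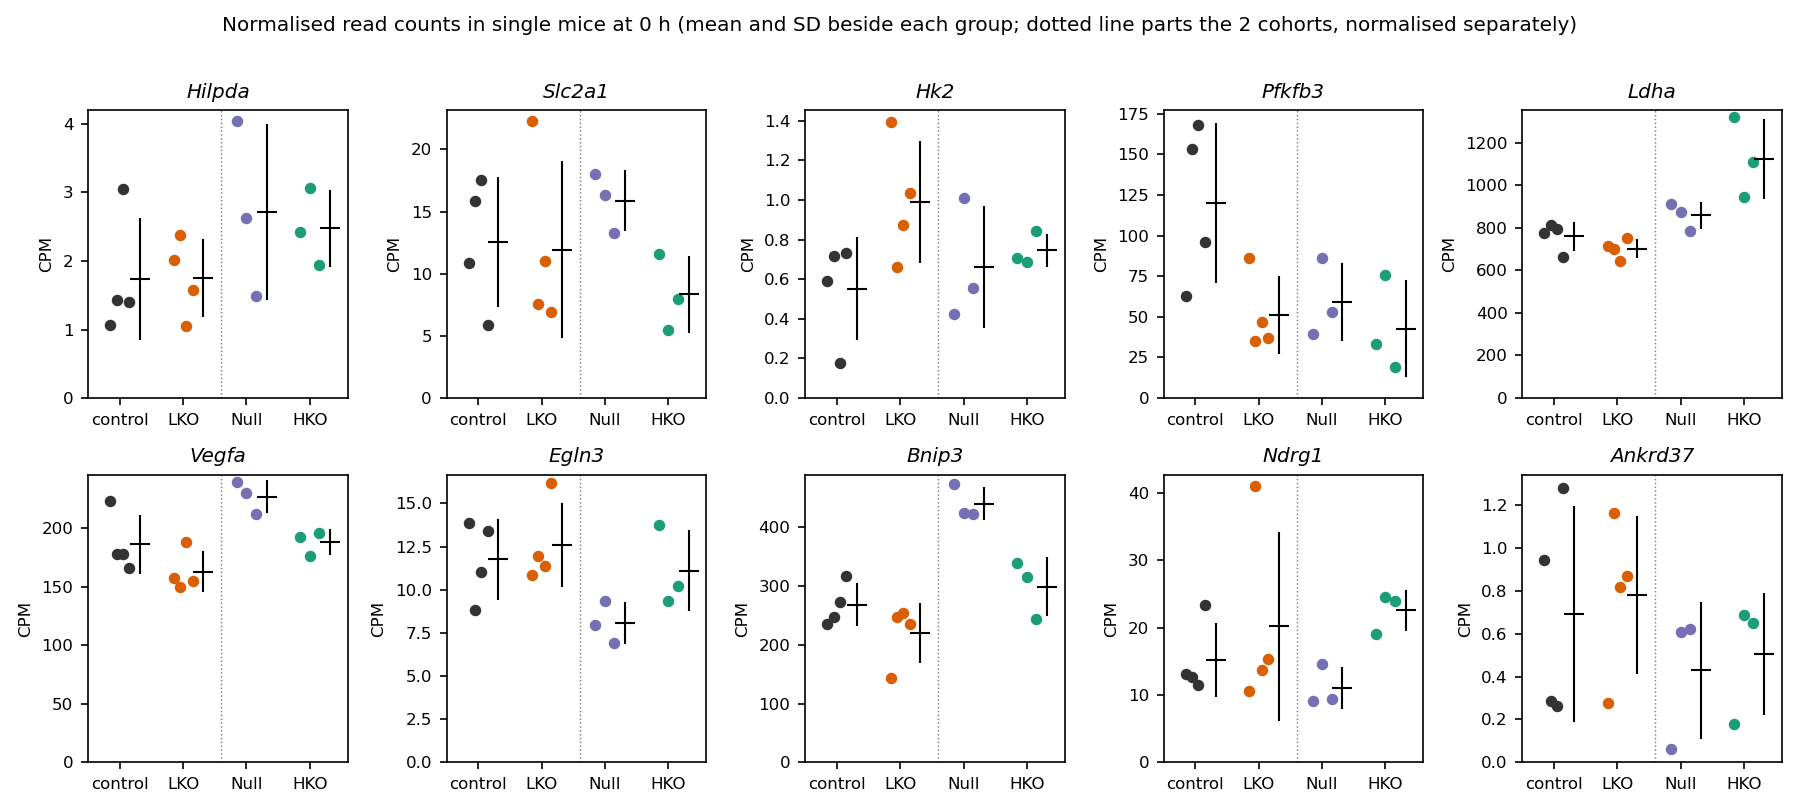
Normalised read counts (CPM, linear axes from 0) of each gene in single mice at 0 h, 4 control and 4 LKO mice left of the dotted line and 3 Null control and 3 HKO mice right of it, with the mean and SD of each group beside its points. The groups overlapped for all 10 genes in the LKO cohort, while in the HKO cohort *Slc2a1*, *Vegfa*, *Ldha*, *Ndrg1* and *Bnip3* did not overlap.

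The first comparison asked whether the genes already differed before APAP. In the LKO cohort none was called. The values of control and LKO mice overlapped for all 10 genes, against 1.83% of 12426 genes whose groups did not overlap, and edgeR's quasi-likelihood test called none of the 10 and none of all genes tested (0.0%, with 352 genes at an unadjusted p under 0.05, and 3 genes called by DESeq2, none of them among the 10). *Hilpda* stood at 1.06, 1.43, 3.06 and 1.40 CPM in control mice and 2.02, 2.37, 1.05 and 1.58 CPM in LKO mice (log2 fold change 0.05, SE 0.38). *Slc2a1* stood at 10.9, 15.8, 17.5 and 5.91 CPM in control mice and 22.3, 7.57, 11.0 and 6.91 CPM in LKO mice (log2 fold change −0.07, SE 0.41). The 2 genes that led the choice of the 10 thus showed no difference larger than its SE before APAP.

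*Pfkfb3* was the most different of the 10 at 0 h in that cohort. Control mice had 62.9, 153, 168 and 96.0 CPM and LKO mice 86.4, 35.3, 46.7 and 36.8 CPM. All LKO mice but 1 were below every control mouse and that 1 lay among them, and the log2 fold change of −1.22 (SE 0.35) had an unadjusted p of 0.00501 and an adjusted p of 0.999 by edgeR over all genes. *Hk2* was at 0.175 to 0.731 CPM in control and 0.663 to 1.39 CPM in LKO mice (log2 fold change 0.79, SE 0.43, adjusted p = 0.999 by edgeR), at 2 to 20 counts per mouse.

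In the HKO cohort 5 of the 9 genes tested had groups that did not overlap, against 18.0% of 12397 genes, and none of the 9 was called by edgeR (0.96% of all genes were, 0.419% higher and 0.54% lower). *Ankrd37* had too few counts to be tested there. *Ndrg1* came closest, with 9.10, 14.6 and 9.41 CPM in Null control mice and 19.1, 24.6 and 24.0 CPM in HKO mice. Every HKO mouse was above every control, and the log2 fold change was 1.03 (SE 0.20, adjusted p = 0.0505). *Slc2a1* had 18.0, 16.3 and 13.2 CPM in Null control mice against 11.6, 5.44 and 7.97 CPM in HKO mice, lower in all 3 HKO mice (log2 fold change −0.93, SE 0.25, adjusted p = 0.143). *Bnip3* had 472, 424 and 422 CPM in Null control mice and 338, 315 and 243 CPM in HKO mice (log2 fold change −0.56, SE 0.13, adjusted p = 0.0974).

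The other 2 genes without overlap in the HKO cohort differed in direction. *Ldha* had 914, 873 and 787 CPM in Null control mice and 1318, 944 and 1108 CPM in HKO mice (log2 fold change 0.39, SE 0.14, adjusted p = 0.258). *Vegfa* had 239, 230 and 212 CPM in Null control mice and 193, 176 and 196 CPM in HKO mice (log2 fold change −0.27, SE 0.09, adjusted p = 0.264). *Hilpda* overlapped, with 4.04, 2.62 and 1.49 CPM against 2.42, 3.07 and 1.94 CPM. When the LKO and HKO effects were compared with each other in 1 fit over 14 mice, none of the 10 passed the test (0.0% of 12945 genes called, 579 at an unadjusted p under 0.05, and 21 called by DESeq2). The largest difference in effect by its unadjusted p (0.0159) was that of *Ldha*, with a log2 value of −0.50 (SE 0.18, adjusted p = 0.944). The cohorts also differ in virus and in the age at deletion.

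The second comparison asked how the genes changed after APAP in both genotypes on average, with 2 pools at each time set against the same 8 mice at 0 h, which all 5 times share. Over all times together, 6 of the 10 changed (adjusted p under 0.05 by edgeR, 52.6% of all 13328 genes), *Hilpda* (2.58e-05), *Ldha* (0.000248), *Slc2a1* (0.000427), *Pfkfb3* (0.00153), *Vegfa* (0.00243) and *Ndrg1* (0.0250). *Hk2* (0.0564), *Egln3* (0.0616), *Bnip3* (0.342) and *Ankrd37* (0.766) did not pass. The call of *Ndrg1* was lost without the control pool at 12 h (adjusted p = 0.221), the LKO pool at 12 h (0.0570) or the control pool at 72 h (0.0515).

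By time, at the threshold of adjusted p under 0.05 and at least 1.5-fold, 4 of the 10 rose and none fell at 12 h, when 17.0% of all genes rose and 14.5% fell. With the control pool at 12 h left out, 3 of the 10 rose and none fell, when 8.11% of all genes rose and 7.53% fell. At 24 h 6 of the 10 were called against 26.1% of all genes, 4 of them higher (14.1% of all) and 2 lower (12.1%). At 48 h 4 were called against 16.7%, 3 higher (10.0%) and 1 lower (6.71%), and at 72 h 2 were called against 16.8%, none higher (11.0%) and both lower (5.81%). None was called at 96 h, when 0.465% of all genes were by edgeR. DESeq2 called 1 of the 10 at 96 h, *Pfkfb3*, and 342 of all genes. The rises at 12 and 24 h include *Hilpda* and *Slc2a1*, and those at 48 h include *Hilpda*, which were chosen on their counts after APAP.

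Counted by overlap alone, both pools lay above all 8 mice for 4, 4, 3, 1 and 0 of the 10 genes at 12, 24, 48, 72 and 96 h, against 18.5%, 19.7%, 13.2%, 15.1% and 7.1% of all genes. They lay below all 8 for 0 genes at 12 h and for *Vegfa* and *Pfkfb3* at each later time, against 17.4%, 18.0%, 11.5%, 12.7% and 7.61%. The median log2 change of the 10 genes was 0.60, 0.29, 0.50, −0.16 and −0.03 in time order, against medians over all genes from −0.04 to 0.00. The 10 genes did not move as 1 group.

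**Figure D2:**
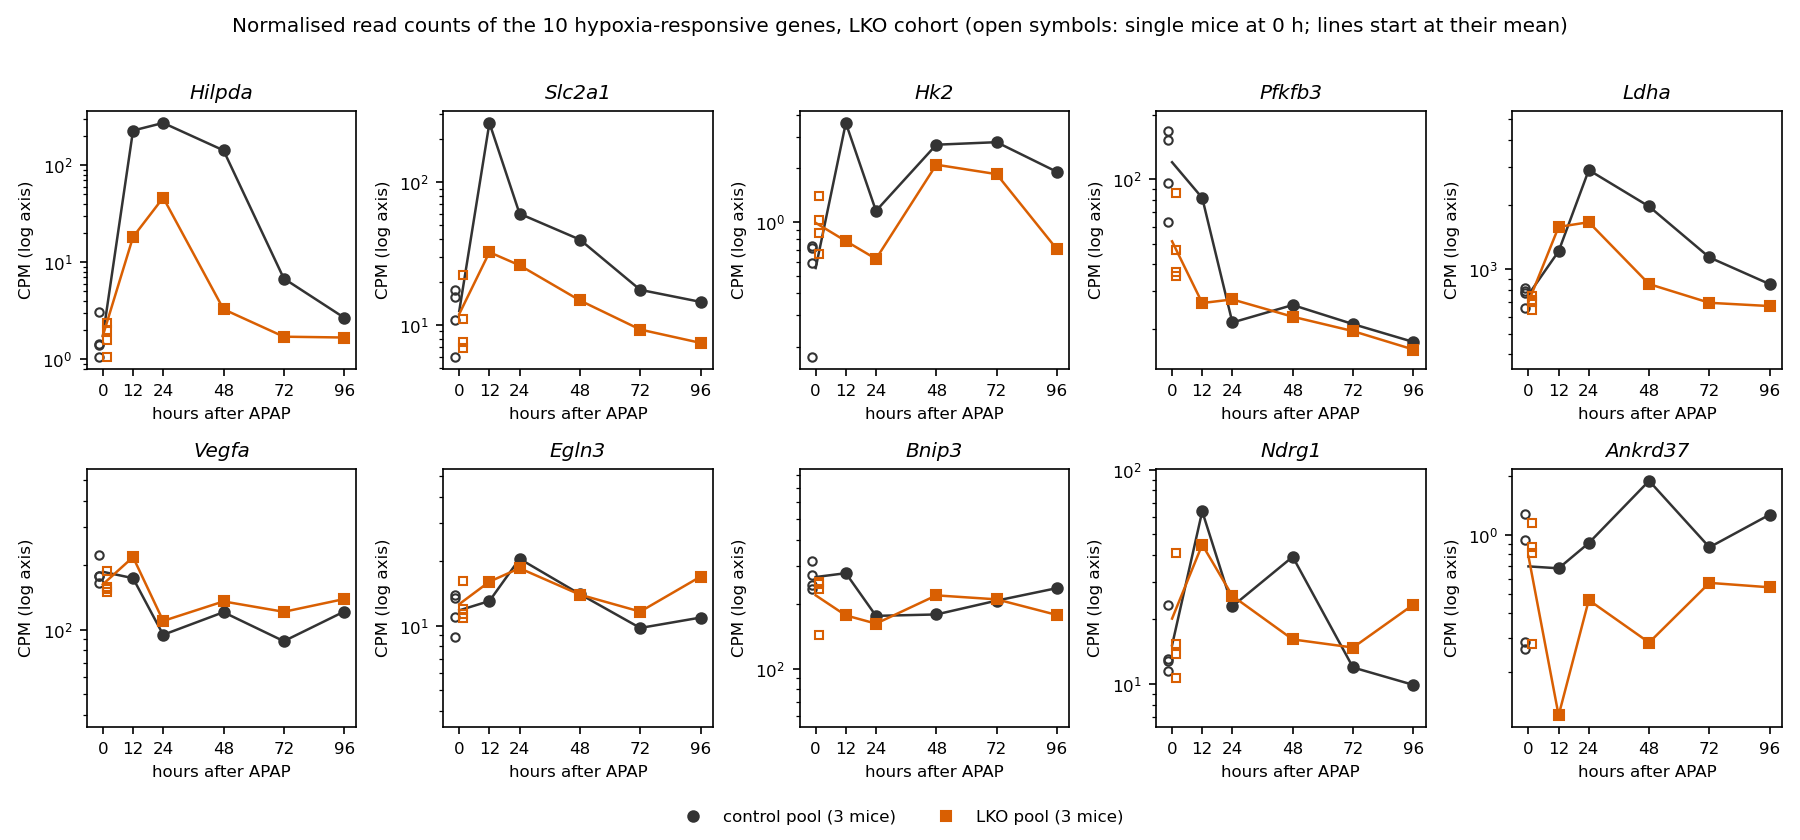
Normalised read counts (CPM, log axes) of each gene in the LKO cohort against hours after APAP, with open symbols for the single mice at 0 h, filled circles for control pools and filled squares for LKO pools of 3 mice. *Hilpda* and *Slc2a1* peaked at 12 to 24 h and returned towards the 0 h mice by 96 h, with the control pools above the LKO pools at each time, while *Vegfa* lay higher in LKO pools at all 5 times.

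*Hilpda* and *Slc2a1* had the largest rises of the 10. *Hilpda* stood at 227, 272, 142, 6.80 and 2.69 CPM in control pools at 12, 24, 48, 72 and 96 h, and at 18.2, 46.2, 3.28, 1.71 and 1.68 CPM in LKO pools. Both pools at 12, 24 and 48 h lay above all 8 mice at 0 h, whose highest value was 3.06 CPM, and by 96 h both lay within their range. *Hilpda* rose 42.7-fold at 12 h (log2 fold change 5.42, SE 0.68, adjusted p = 3.31e-05), 63.6-fold at 24 h (5.99, SE 0.66) and 22.7-fold at 48 h (4.51, SE 0.72, adjusted p = 0.000435, all by edgeR). Without the control pool the log2 fold change was 4.09 at 12 h (adjusted p = 0.00531), and at 48 h it was 1.56 and no longer called (adjusted p = 0.312). Without the LKO pool it was 6.22 at 12 h and 5.63 at 48 h.

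*Slc2a1* stood at 261, 60.2, 39.6, 17.6 and 14.5 CPM in control pools and at 32.3, 26.2, 14.8, 9.28 and 7.48 CPM in LKO pools. Both pools exceeded the highest 0 h mouse (22.3 CPM) at 12 and 24 h, and only the control pool did so at 48 h. The rise was 9.46-fold at 12 h (log2 fold change 3.24, SE 0.46, adjusted p = 9.64e-05 by edgeR) and 3.19-fold at 24 h (1.67, SE 0.47, adjusted p = 0.0141). Without the control pool at 12 h the log2 fold change was 1.69 and still called (adjusted p = 0.0410), and without the LKO pool it was 4.09. Its call at 24 h was lost without the control pool (1.48, adjusted p = 0.149) or the LKO pool (1.87, adjusted p = 0.0843) of that time.

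Among the glycolytic enzymes, *Ldha* rose and *Pfkfb3* fell. *Ldha* stood at 1213, 2903, 1962, 1135 and 851 CPM in control pools and at 1576, 1657, 852, 697 and 673 CPM in LKO pools, against 643 to 814 CPM in the 8 mice at 0 h. At 12, 24 and 48 h both pools lay above all 8 mice, and at 72 and 96 h the LKO pools lay among them. Its log2 fold change was 0.96 (SE 0.22, adjusted p = 0.00328 by edgeR) at 12 h, 1.6 (SE 0.21, adjusted p = 9.91e-05) at 24 h and 0.88 (SE 0.22, adjusted p = 0.0118) at 48 h. The call at 12 h was lost without the LKO pool (0.49, adjusted p = 0.211) and that at 48 h without the control pool (0.34, adjusted p = 0.50).

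*Pfkfb3* stood at 81.8, 21.5, 25.9, 21.1 and 17.4 CPM in control pools and at 26.4, 27.5, 22.8, 19.6 and 16.0 CPM in LKO pools. From 24 h on, both pools lay below all 8 mice at 0 h, whose lowest value was 35.3 CPM, and at 12 h only the LKO pool did. The gene fell by 1.61 (SE 0.47, adjusted p = 0.0176 by edgeR) at 24 h, by 1.69 (SE 0.47, adjusted p = 0.0214) at 48 h and by 1.94 (SE 0.48, adjusted p = 0.0106) at 72 h, all on the log2 scale, and the value of −2.22 (SE 0.49) at 96 h did not pass (adjusted p = 0.0559). These 3 calls were lost without the control pool of their time, when the log2 fold change was −1.08 (adjusted p = 0.262), −1.39 (0.253) and −1.6 (0.267), and at 48 h also without the LKO pool (−2.02, adjusted p = 0.0591). Without the LKO pool at 24 h the value was −2.31.

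*Hk2* was at low levels, with 12 to 53 counts per pool. It stood at 3.59, 1.15, 2.71, 2.80 and 1.91 CPM in control pools and at 0.783, 0.622, 2.10, 1.86 and 0.705 CPM in LKO pools, against 0.175 to 1.39 CPM at 0 h. Both pools lay above the 8 mice at 48 and 72 h, and at 12 h the control pool was above them and the LKO pool among them. It was called at 48 h (log2 fold change 1.57, SE 0.51, adjusted p = 0.0432 by edgeR), and 13 of 25 alternatives kept that call, with adjusted p-values from 0.0228 to 0.240. Leaving out either 48 h pool ended the call (1.54, adjusted p = 0.240, without the control pool and 1.6, adjusted p = 0.151, without the LKO pool), as did leaving out any of 9 other libraries, with log2 fold changes from 1.48 to 1.61 and adjusted p from 0.0509 to 0.0765.

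*Vegfa*, the ligand of the endothelial VEGF receptors, was not called higher at any time. It stood at 174, 94.6, 121, 88.3 and 121 CPM in control pools and at 218, 110, 135, 121 and 139 CPM in LKO pools, against 149.5 to 223 CPM in the 8 mice at 0 h. At 12 h both pools lay among the mice, and from 24 h on both lay below all of them. It fell by 0.78 (SE 0.18, adjusted p = 0.00482 by edgeR) at 24 h and by 0.74 (SE 0.18, adjusted p = 0.00952) at 72 h on the log2 scale. The call at 24 h was lost without either pool of that time, with a log2 fold change of −0.69 without the control pool and −0.85 without the LKO pool. That at 72 h was lost without the control pool (−0.53).

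*Egln3*, which feeds back on HIF, was called at 24 h only. It stood at 13.0, 20.5, 14.0, 9.74 and 10.9 CPM in control pools and at 16.0, 18.5, 13.9, 11.6 and 16.9 CPM in LKO pools, against 8.80 to 16.2 CPM at 0 h. Both pools exceeded the 8 mice at 24 h only, when the log2 fold change was 0.68 (SE 0.20, adjusted p = 0.0157 by edgeR), and that call was lost without the control pool (0.51, adjusted p = 0.251) or the LKO pool (0.85, adjusted p = 0.0616).

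*Ndrg1* and *Bnip3*, which act in stress responses and mitophagy, differed from each other. *Ndrg1* stood at 64.0, 23.0, 39.2, 11.9 and 9.90 CPM in control pools and at 44.7, 25.8, 16.1, 14.8 and 23.5 CPM in LKO pools. Both 12 h pools lay above all 8 mice, of which 1 LKO mouse had 41.0 CPM and the other 7 from 10.6 to 23.3 CPM. The log2 fold change at 12 h was 1.64 (SE 0.41, adjusted p = 0.00563 by edgeR) and was no longer called without the control pool (1.21, adjusted p = 0.159). *Bnip3* stood between 162 and 279 CPM in the 10 pools and between 144 and 317 CPM in the 8 mice, overlapping at every time, with log2 fold changes from −0.52 to −0.11 of which none was called.

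*Ankrd37* never exceeded 1.89 CPM (37 counts, in the control pool at 48 h) and had 1 to 37 counts per library. No change was called at any time, with log2 fold changes from −1.09 to 0.31 and SEs from 0.66 to 0.78, so that only large changes were in reach at this depth. Without the control pool the value at 12 h was −2.31, from 2 counts in the LKO pool. Its gene span overlaps *Ufsp2* and *Lrp2bp* on the other strand (overlap of exons was not examined), and the counts used disregard strand.

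**Figure D3:**
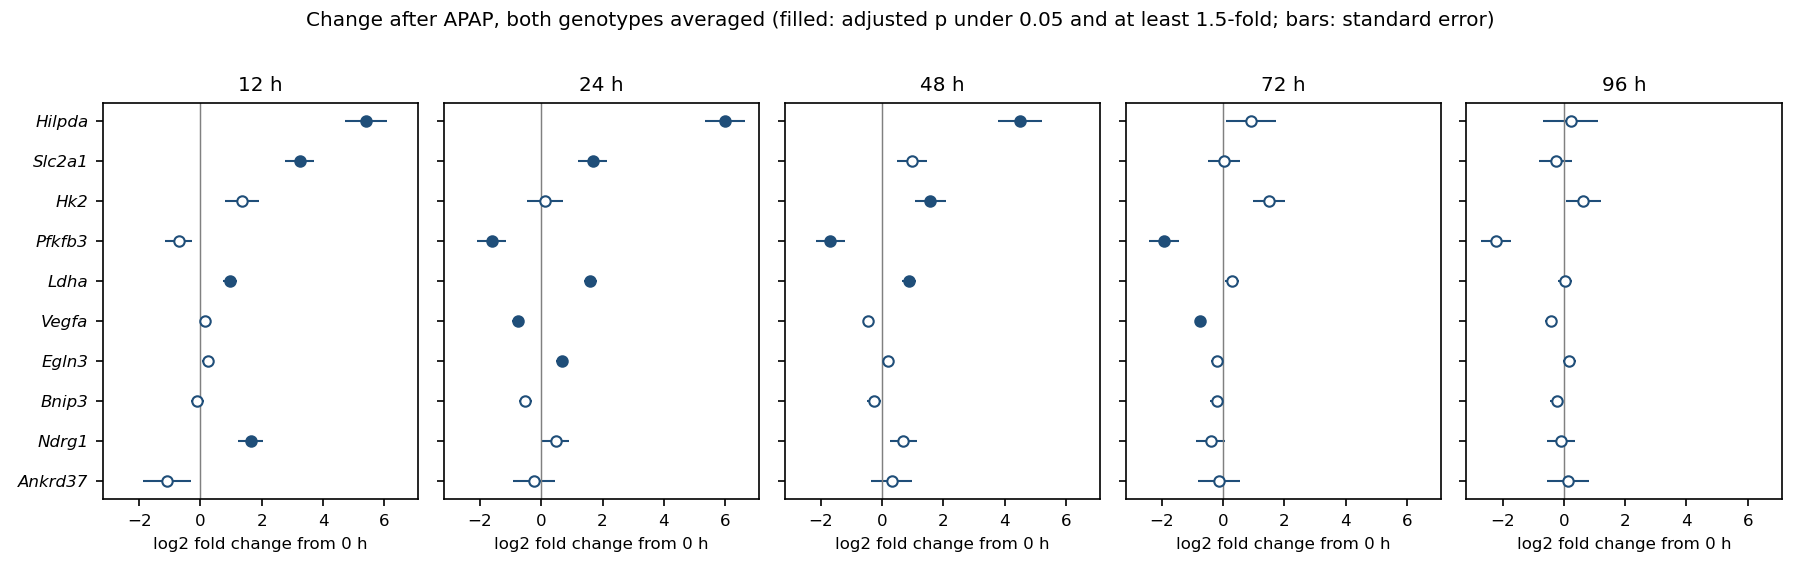
Log2 fold change of each gene from 0 h at each time after APAP, averaged over genotypes, with the standard error as a bar and filled points where the adjusted p was under 0.05 and the change at least 1.5-fold. *Hilpda* reached 5.99 at 24 h, *Pfkfb3* lay below 0 at all 5 times, and *Bnip3* stayed between −0.52 and −0.11.

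The 12 to 48 h pools were also set against the 72 and 96 h pools, pools against pools, although the fit is that of all 18 libraries, so the spread includes the mice at 0 h. *Hilpda* (log2 difference 4.73, SE 0.74, adjusted p = 0.000418), *Slc2a1* (2.08, SE 0.45, adjusted p = 0.00334), *Ndrg1* (1.19, SE 0.39, adjusted p = 0.0284) and *Ldha* (0.98, SE 0.20, adjusted p = 0.00204) were higher early by edgeR, 4 of the 10, where 23.1% of all genes differed and 11.0% were higher. Without the control pool at 12 h the calls of *Hilpda* (4.32, adjusted p = 0.000976), *Slc2a1* (1.56, adjusted p = 0.00981) and *Ldha* (1.09, adjusted p = 0.00145) held, and without the control pool at 48 h the difference of *Hilpda* was 3.78 (adjusted p = 0.000556). The call of *Ndrg1* was lost when any of 6 pools was left out, with log2 differences from 0.87 to 1.22 and adjusted p from 0.0559 to 0.156. The other 6 genes did not pass, with *Pfkfb3* at 0.74 (adjusted p = 0.118) and *Vegfa* at 0.23 (adjusted p = 0.225).

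The third comparison set the LKO pool against the control pool at each time. It is the contrast on which *Hilpda* and *Slc2a1* were chosen, each value rests on 1 pool per genotype, and no test is given for the 10 genes. *Hilpda* was lower in LKO at all 5 times, with control over LKO ratios of 12.5, 5.88, 43.2, 3.97 and 1.6, and the fitted log2 difference over the 5 times was −2.99 (SE 0.54). *Slc2a1* was lower at all 5 times with ratios of 8.07, 2.30, 2.67, 1.90 and 1.94 (fitted −1.5, SE 0.28). The gap of *Hilpda* was widest at 48 h, when the LKO pool was back near the 0 h mice and the control pool was not, and that of *Slc2a1* at 12 h. Leaving out each time in turn, the fitted difference ranged from −3.40 to −2.40 for *Hilpda* and from −1.64 to −1.12 for *Slc2a1*, and without the 12 h pools it was −2.79 and −1.12. With no time block that of *Slc2a1* was −2.13.

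The other 8 genes were divided. *Hk2* was lower in LKO at all 5 times with ratios from 1.29 to 4.59 (fitted −1.06, SE 0.36), and *Ankrd37* was lower at all 5 times as well (−1.49, SE 0.47), both at levels of a few CPM or less. *Ldha* was higher in LKO at 12 h (log2 difference 0.38) and lower at the other 4 times (−1.20 at 48 h, fitted −0.54, SE 0.23). *Pfkfb3* was lower at 12 h (−1.63) and within 0.36 of the control pool at the later times (fitted −0.33, SE 0.25, and −0.01 without the 12 h pools).

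*Vegfa* was higher in LKO at all 5 times by 0.17 to 0.45 on the log2 scale (fitted 0.27, SE 0.14). *Egln3* lay between −0.15 and 0.63 (fitted 0.20, SE 0.17) and *Bnip3* between −0.65 and 0.30 (fitted −0.18, SE 0.17). *Ndrg1* was lower in LKO at 12 and 48 h (−0.52 and −1.28) and higher at the other 3 times (1.24 at 96 h), with a fitted value of −0.03 (SE 0.30) that was above 0 without the 12 h pools (0.11) or the 48 h pools (0.29). Of the 8 genes other than *Hilpda* and *Slc2a1*, 5, 5, 6, 4 and 5 were lower in LKO at 12, 24, 48, 72 and 96 h, when 51.8%, 47.9%, 50.2%, 50.8% and 49.9% of 13328 genes were, and their median log2 difference was −0.59, −0.13, −0.27, −0.04 and −0.23. Scaling by library size alone moved the median of all genes to between −0.14 and 0.22 at single times and left these counts at 5, 5, 6, 4 and 4.

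**Figure D4:**
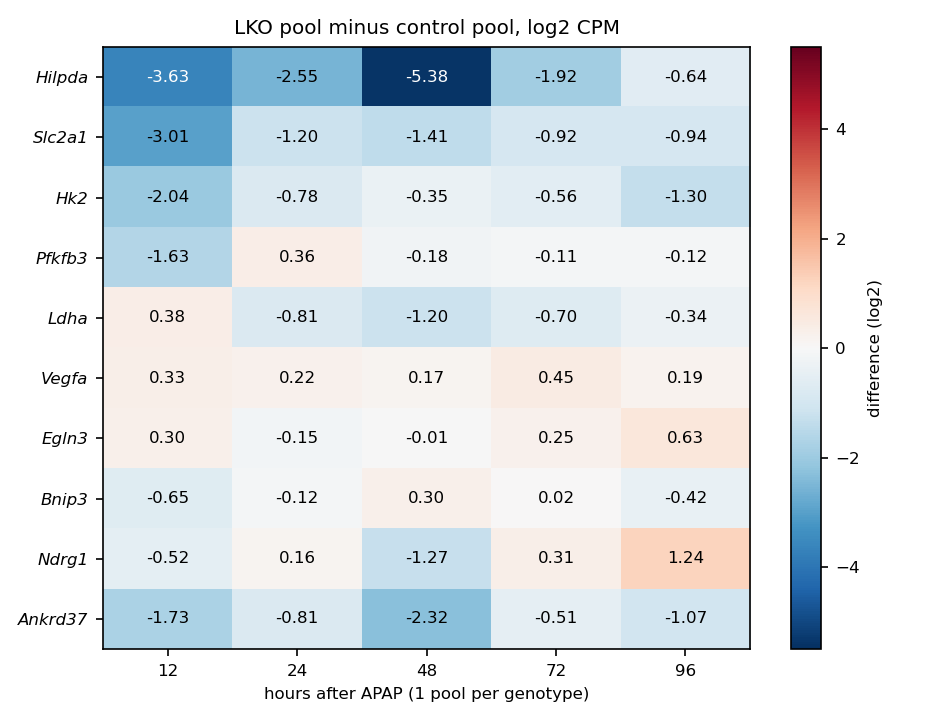
Difference in log2 CPM between the LKO and the control pool for each gene (rows) and each time after APAP (columns), in blue where the LKO pool was lower and red where it was higher, with the value in each cell. *Hilpda* ranged from −5.38 at 48 h to −0.64 at 96 h and *Vegfa* was above 0 at all 5 times.

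Markers of cell types and liver zones moved over the same pools. The 9 pericentral hepatocyte markers summed to 6830 to 12130 CPM in the 8 mice at 0 h and to 5061, 1544, 789.7, 3237 and 8901 CPM in control pools and 4399, 3095, 2904, 5872 and 5775 CPM in LKO pools, so that they were lowest in the control pools at 24 and 48 h. At 24 h 7 of the 9 had fallen (12.1% of all genes) and at 48 h 8 of 9 (6.71%). The 6 cholangiocyte markers summed to 8.96 to 13.1 CPM at 0 h and were highest in the control pool at 12 h (137 CPM, against 22.8 CPM in the LKO pool), the library in which *Slc2a1* was highest, and *Cldn4* of that list was at 0 in 1 or more mice at 0 h.

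The 7 neutrophil markers in the files summed to 2.62 to 12.2 CPM at 0 h, to 18.0, 14.2, 33.6, 28.8 and 8.77 CPM in control pools and to 18.1, 32.3, 10.4, 9.04 and 2.44 CPM in LKO pools. Both pools at 12 and 24 h, when *Hilpda* and *Slc2a1* were highest, lay above the 8 mice, and 4 of the 7, *Retnlg*, *Cxcr2*, *Mmp8* and *Camp*, were at 0 in 1 or more mice. The 10 macrophage markers were highest at 72 h (709 CPM in the control and 700 CPM in the LKO pool, against 125 to 316 CPM at 0 h), when *Hilpda* and *Slc2a1* had fallen. The 8 endothelial markers summed to 172 to 276 CPM in the pools and 210 to 271 CPM in the 8 mice, but 5 of the 8 changed over the times together (52.6% of all genes), and at 48 h *Lyve1* was called higher (log2 fold change 1.5) and *Tie1* (−0.96) and *Stab2* (−0.68) lower. Stellate and fibroblast markers (8) were highest at 72 h as well, with 835 CPM in the control and 620 CPM in the LKO pool against 129 to 246 CPM at 0 h, and the 7 lymphocyte markers summed to at most 6.51 CPM in the pools and to 1.83 to 5.11 CPM in the 8 mice. The 7 periportal markers summed to 6317 to 11310 CPM at 0 h and 2581 to 6082 CPM in the pools, and 4 of 5 erythroid markers, the globin genes, were at 0 in every library. The part of any of these cell types in the levels of the 10 genes was not tested.

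Genes of the HIF pathway itself were called most often at 12 h. Of 15 tested, 5 rose (17.0% of all genes) and 2 fell (14.5%) at 12 h, led by *Hif1a*, the oxygen-regulated subunit (log2 fold change 2.11, SE 0.35, adjusted p = 0.000274 by edgeR), the coactivator gene *Crebbp* (0.95) and *Epas1*, which encodes HIF-2 alpha (0.95). *Rbx1* (−0.67) and *Tceb2* (−0.62), parts of the VHL ubiquitin ligase, fell. Without the control pool at 12 h 1 of the 15 was called, *Arnt* (0.71, adjusted p = 0.0391), the log2 fold change of *Hif1a* was 0.72 (adjusted p = 0.161), and 8.11% of all genes rose and 7.53% fell. *Hif1a* stood at 330, 213, 95.4, 41.1 and 36.1 CPM in control pools and at 59.6, 86.0, 50.5, 44.9 and 39.4 CPM in LKO pools, with means of 40.9 and 38.7 CPM at 0 h. So *Hif1a* was higher in control than in LKO pools at 12, 24 and 48 h and no longer at 72 and 96 h. In the contrast of LKO with control pools none of 14 pathway genes was called, *Hif1a* having the smallest unadjusted p (0.0250, log2 difference −0.89, adjusted p = 0.218).

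At 24 h 2 of the 15 pathway genes were called, *Hif1a* (1.81) and *Tceb1* (0.83), both higher (14.1% of all genes). At 48 h 1 was called, *Egln2*, which fell by 0.63 on the log2 scale (6.71% of all genes fell). At 72 h 2 were called, *Crebbp* (−1.08) and *Hif1an* (−0.65), the factor-inhibiting hydroxylase, both lower (5.81%), with none called at 96 h (*Hif1an* −0.40, adjusted p = 0.222).

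The other known HIF targets were called in both directions. Of 31 tested, 6 rose and 2 fell at 12 h (17.0% and 14.5% of all genes), 6 and 5 at 24 h (14.1% and 12.1%), 7 and 3 at 48 h (10.0% and 6.71%), 6 and 2 at 72 h (11.0% and 5.81%), and none was called at 96 h (*Angptl4* −1.08, adjusted p = 0.0559). The list's median log2 change lay between −0.26 and 0.15 over the 5 times, against −0.04 to 0.00 over all genes. The heme oxygenase gene *Hmox1* (4.40) and the metallothionein gene *Mt1* (3.16) were among those that rose at 12 h, while *P4ha1* (−0.89), a collagen prolyl hydroxylase, and *Ak4* (−0.84), an adenylate kinase, fell. Leaving out the control pool at 12 h, 4 of 32 rose and 1 fell (8.11% and 7.53% of all genes). *Hmox1* (3.75, adjusted p = 4.65e-06) and *Mt1* (3.58, adjusted p = 0.0254) were then still called, and *P4ha1* (adjusted p = 0.142) and *Ak4* (0.200) were not.

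Other targets were called higher later. *Anxa2*, a membrane-binding annexin, rose in the 24 h (3.92), 48 h (3.86) and 72 h pools (3.27). The collagen crosslinker gene *Lox* was counted among the rises at the same times. It was at 0 to 0.487 CPM in the LKO cohort at 0 h, so no fold is given. *Lox* was not tested at 0 h and passed the filter only through the pools. Its calls could therefore hardly have gone the other way and are no support for a rise. Its levels at 24, 48 and 72 h were 2.98, 3.63 and 10.3 CPM in control pools and 0.622, 1.98 and 3.71 CPM in LKO pools. *Bhlhe41* (−1.43), *P4ha1* (−1.29) and *Pdk1* (−1.02) fell at 24 h, *Bhlhe41* (−1.78), *Bhlhe40* (−1.13) and *P4ha1* (−0.93) at 48 h, and *Angptl4* (−0.93) and *Bhlhe40* (−0.92) at 72 h, when *Hmox1* (2.38) was again among the 3 largest rises.

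In the contrast of LKO with control pools, 2 of 30 other targets, a list chosen with earlier results of these data known, were called by edgeR (0.579% of 12782 genes), and both were lower in LKO (0.329%). *Anxa2* stood at 57.2, 296, 281, 196 and 24.5 CPM in control pools and at 7.41, 86.2, 84.4, 51.3 and 18.8 CPM in LKO pools (log2 difference −1.76, SE 0.29, adjusted p = 0.0407). *Hmox1* stood at 740, 69.5, 90.5, 132 and 23.3 CPM in control pools and at 214, 45.1, 23.9, 82.5 and 11.7 CPM in LKO pools (−1.21, SE 0.22, adjusted p = 0.0484). The LKO pool was lower at all 5 times for both. The call of *Anxa2* held in 7 of 13 alternatives and that of *Hmox1* in 5 of 13, and both were lost when the 12, 24, 48 or 72 h pools were left out. The median difference of the 30 was −0.35, against −0.01 over all genes.

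At 0 h few of these targets were called between genotypes. None of 29 was called in LKO (0.0% of all genes, *Bhlhe41* −0.78, adjusted p = 0.999). In HKO 1 of 28 was called (0.96% of all genes), *Ak4*, which was lower (0.54%) with a log2 fold change of −0.71 (SE 0.12, adjusted p = 0.0254 by edgeR).

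Of the wider set of 22 glycolysis genes, 6 rose and 6 fell at 12 h (17.0% and 14.5% of all genes), and without the control pool of that time 3 rose and 1 fell (8.11% and 7.53%). *Pfkfb2* (1.11), *Aldoa* (1.07) and *Hk1* (1.04) rose most, and *Ldhb* (−1.48) and *Pfkfb1* (−1.24) were among those that fell. *Pkm*, the pyruvate kinase of dividing and non-hepatocyte cells, stood at 34.5, 56.0, 129, 153 and 23.4 CPM in control pools and at 33.1, 46.9, 49.5, 56.6 and 20.1 CPM in LKO pools, and rose over 24 (1.51), 48 (2.25) and 72 h (2.48). So *Pkm* peaked at 72 h, whereas *Ldha* peaked at 24 h.

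At 24 h 3 glycolysis genes rose, *Pkm*, the lactate transporter gene *Slc16a1* (1.08) and *Aldoa* (0.64), and 3 fell, *Slc2a2* (−1.16), *Hk3* (−1.09) and *Pfkm* (−0.83), against 14.1% and 12.1% of all genes. At 48 h 2 rose (*Slc16a1* 0.71) and 3 fell (among them *Slc2a2* −0.94 and *Pfkm* −0.67), against 10.0% and 6.71%, and at 72 h 3 rose (*Hk3* 1.39 and *Aldoc* 0.76 beside *Pkm*) and *Pfkm* fell by 0.61 on the log2 scale, against 11.0% and 5.81%. None was called at 96 h. In HKO mice at 0 h *Slc16a1* was higher (0.97, SE 0.15, adjusted p = 0.0182 by edgeR), 1 of 22 (0.96% of all genes were called, 0.419% higher), and none was called in LKO mice (*Pfkfb1* −0.51) or between LKO and control pools (*Pklr* 0.91, adjusted p = 0.0579).

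Of 9 VEGF family genes tested, 3 receptor genes, *Flt4* (−1.04), *Flt1* (−0.79) and *Kdr* (−0.75), fell at 24 h (12.1% of all genes). *Nrp2* (−0.82) and *Kdr* (−0.63) fell at 48 h (6.71%) and *Flt4* (−0.91) and *Kdr* (−0.82) at 72 h (5.81%). At 12 h 2 of the 9 were called higher (17.0%), *Nrp2* (0.67) and *Pgf*, and 1 lower (14.5%), *Vegfb* (−0.97). Without the control pool of that time only *Pgf* was called (8.11% of all genes rose and 7.53% fell), with an adjusted p of 0.140 for *Nrp2* and 0.215 for *Vegfb*. The placental growth factor gene *Pgf* was called higher at 12, 24 (14.1% of all genes), 48 (10.0%) and 72 h (11.0%), but was at 0 or 1 count in each of the 8 mice at 0 h and had no read at 12 h in the control pool, so no fold is given. *Pgf* passed the filter only through the pools where it was detected. These calls, with or without the control pool at 12 h, could therefore hardly have gone the other way and are no support for a rise. Its highest level was 6.19 CPM in the control pool at 48 h, when the LKO pool had 0.170 CPM. None was called at 0 h in LKO (*Vegfb* 0.46) or HKO (*Nrp1* 0.40), at 96 h (*Flt4* −0.99, adjusted p = 0.0638) or between genotypes after APAP (*Flt4* −0.20).

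Of 11 genes of lipid droplets, where the *Hilpda* product acts, 6 rose (17.0% of all genes) and none fell at 12 h, led by *Cidec* (5.09), *Plin4* (4.11) and *Plin2* (2.6), which encode droplet coat proteins. In the LKO pool of that time alone *Cidec*, *Plin4* and *Plin2* stood at 225, 281 and 1885 CPM, each above all 8 mice at 0 h. At 24 h 4 rose (14.1%) and none fell, led by *Cidec* (5.26), *G0s2* (3.87), an inhibitor of lipolysis, and *Plin2* (3.08). At 48 h *Cidec* (4.66), *G0s2* (2.23) and *Plin2* (1.86) rose (10.0%) and *Lipe*, the hormone-sensitive lipase gene, fell (−0.98, 6.71%), and at 72 h none rose and *Mgll* (−1.06) and *Pnpla2* (−0.91) fell (5.81%).

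*Plin2* stood at 2220, 3082, 2404, 407 and 366 CPM in control pools and at 1885, 2611, 272, 292 and 341 CPM in LKO pools, with means of 317 and 348 CPM at 0 h. *Cidec* stood at 151, 253, 431, 12.5 and 4.31 CPM in control pools and at 225, 210, 3.23, 2.57 and 1.84 CPM in LKO pools. At 48 h the LKO pool was thus near the 0 h level for *Plin2*, *Cidec* and *Hilpda* while the control pool was not. *Plin2* and *Cidec* differed by less than 1.5-fold between the genotypes at 12 and 24 h, whereas *G0s2* stood at 125.5 CPM in the control and 48.2 CPM in the LKO pool at 12 h (2.6-fold) and at 241 and 199.8 CPM at 24 h (1.21-fold). *Plin4* went the other way, with 68.1 CPM in the control and 281 CPM in the LKO pool at 12 h and 20.1 and 46.1 CPM at 24 h. From 48 h on it was lower in the LKO pool (30.4 and 6.00 CPM at 48 h). None of the 11 was called between genotypes after APAP (*G0s2* −1.61, adjusted p = 0.0986) or at 0 h in LKO (*G0s2* 0.98) or HKO (*Plin2* 0.64).

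Of 10 targets of PPAR-alpha, the fasting regulator that also drives droplet genes, 7 rose (17.0% of all genes) and none fell at 12 h, led by *Cyp4a14* (4.24), *Pdk4* (4.13) and *Cyp4a10* (3.48). Without the control pool of that time 4 rose (8.11%), and *Cyp4a14* (adjusted p = 0.0982) and *Cyp4a10* (0.0613) were not among them. At 24 h only *Pdk4* was called (4.45), higher as 14.1% of all genes were, and at 48 h it rose by 3.76 while *Acot1* (−2.23) and *Ehhadh* (−0.98) were among 4 that fell (6.71%). At 72 h none rose and 3 fell (5.81%), among them *Acot1* (−1.91) and *Ehhadh* (−1.02), and none was called at 96 h (*Acot1* −1.56, adjusted p = 0.0942). None was called at 0 h in LKO (*Fgf21* 0.98) or HKO (*Ehhadh* 0.68, adjusted p = 0.0723) or between genotypes after APAP (*Vnn1* 0.44).

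Across the 18 libraries of the LKO cohort, log2 CPM of *Hilpda* was most like that of *Sphk1* (Pearson r = 0.98), *Tnfrsf12a* (0.97) and *Fosl1* (0.97) among 13327 other genes, and that of *Slc2a1* most like *Rhbdf2*, *Suco* and *Wsb2* (all 0.95). The points share the same mice at 0 h and the same pools, so these values describe the libraries only. In the 12 h pools *Sphk1* had 29.7 CPM in control and 2.59 CPM in LKO, and *Tnfrsf12a* 490 and 129 CPM. Among the 10 genes, *Hilpda* was most like *Ldha* (0.91) and *Slc2a1* (0.86), and its r was −0.38 with *Vegfa* and −0.21 with *Pfkfb3* over the same 18 libraries.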

How the data were processed

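Whole-liver RNA was sequenced in 24 libraries, 14 of single mice at 0 h and 10 of pooled mice after APAP. Read trimming (Trimmomatic) and alignment to mm10 (STAR) were done by the authors, who deposited raw read counts per gene in 3 columns, and the column that disregards strand was used. The annotation version is not given in the sources used here. The 24411 gene names were matched to GENCODE vM21 (95.6% to 1 gene) and exon lengths and coordinates taken from it (GRCm38). The 4 entries that name no gene, which held between 18.7% and 39.9% of the reads of a library, stayed out of totals and tests.

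After filterByExpr and TMM scaling, counts were tested with the quasi-likelihood F-test of edgeR 4.0.16 (R 4.3.3), 2-sided, with Benjamini-Hochberg adjustment over all genes tested. Calls needed an adjusted p under 0.05 and at least a 1.5-fold difference, as in the study's methods. LKO and HKO mice were compared with controls within each cohort at 0 h. APAP times were compared with 0 h in 1 fit of genotype and time over the 18 libraries of the LKO cohort, so that the residual spread also holds any difference between genotypes in the response. Pools were compared with time as a block. Log2 CPM used a prior count of 2.

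Depth was 12665686 to 19499897 reads on genes per library. The test was checked on simulated counts with 200 changed genes, where the share of 2-fold and of 4-fold changes it called was 55% and 91% for LKO (0 h), 68% and 92% for HKO, 23% and 75% for the difference of effects, 35% and 85% for APAP at 12 h and 63% and 96% between pools. Alternatives were DESeq2 1.42.0, RLE or library-size scaling, other filters, no fold limit, a stranded column, other terms in the fit and leaving out each library. The 10 genes and all lists were chosen with earlier results of these data known. Named were the 10 genes, and from each list up to 3 called genes with the largest rise and fall in a comparison (where none was called, the gene with the smallest p), close relatives of the 10, the 3 genes most like *Hilpda* and *Slc2a1*, and *E2f7* and *E2f8*. A few genes that this rule names are not reported here.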

Additional observations from a re-analysis of the deposited data

Results flagged for a closer look

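In 20 groups of 4 mice (10 genes in control and LKO mice at 0 h), 3 had 1 mouse far from the other 3, where chance alone gives about 1 in 20. *Ndrg1* reached 23.34 CPM in 1 control mouse, with the next at 13.1 CPM and the lowest at 11.44 CPM. *Ndrg1* reached 40.98 CPM in 1 LKO mouse, with the next at 15.39 CPM and the lowest at 10.65 CPM. *Bnip3* was at 143.9 CPM in 1 LKO mouse, with the next at 235.4 CPM and the highest at 253.3 CPM.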

How the results depend on the processing

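Of 2273 values of single genes under the alternatives, 2119 kept their direction and their side of the threshold, 33 lost a call, 31 gained one and 26 moved without a call in the same direction. The other 64 changed sign, 52 of them by less than 1 error, and none of the 64 was called with either sign. Their reported values were at most 0.69 in size on the log2 scale. Among them was the fitted difference of *Ndrg1* between LKO and control pools (−0.03), which was 0.06 with library size only, 0.11 without the 12 h pools and 0.29 without the 48 h pools. That of *Slc2a1* (−1.5) was −2.13 with no time block. For HKO at 0 h the count of the 10 genes called was 0, and 2 with DESeq2 (*Ndrg1*, adjusted p = 0.000266, and *Slc2a1*, 0.0168), 1 with library size only, 1 with no filter beyond 1 count and 1 with the stranded column (*Ndrg1* in each). Over all alternatives the adjusted p of *Ndrg1* there ranged from 0.000266 to 0.206 and that of *Slc2a1* from 0.0168 to 0.410. With 1 HKO-cohort mouse left out, 0 to 3 were called, 3 without HKO replicate 1 (*Slc2a1*, *Ndrg1* and *Bnip3*) and 1 without Null replicate 2. At 96 h 1 gene, *Pfkfb3*, was called with DESeq2 and 1 with no filter beyond 1 count. With 1 library left out, 3 to 5 of the 10 were called at 12 h, 2 to 7 at 24 h, 0 to 5 at 48 h, 0 to 3 at 72 h and 0 to 1 at 96 h, and the lowest counts at 48 and 72 h were those without the control pool of that time. Early against late, 3 to 4 were called, and at any time 5 to 7. For LKO at 0 h and the difference of effects 0 were called under all alternatives. Of the other lists, 2 genes were called between pools, and 9 with DESeq2, 0 with library size only, 6 with no filter beyond 1 count, 1 with at least 10 counts in every library, 1 with the stranded column, 0 with no time block and 0 to 2 with 1 time left out. The cause was not tested. Over all alternatives, the genes called in the whole table numbered 54 to 331 for HKO (119 as reported), 0 to 3 for LKO, 0 to 21 for the difference of effects, 2079 to 4754 at 12 h, 1143 to 3906 at 24 h, 474 to 2637 at 48 h, 474 to 2519 at 72 h, 11 to 342 at 96 h, 1909 to 4116 early against late and 0 to 606 between pools. With the replicate number as a block, 2 of the 10 were called for HKO (*Ndrg1*, adjusted p = 0.0112, and *Slc2a1*, 0.0498) and 0 for LKO. The genes called in the whole table in that HKO fit are within the 54 to 331 given above. Deviations of same-numbered mice correlated from −0.35 to 0.20, and with so few mice this cannot decide whether the numbers pair them. With 2 pools against 8 mice, 35% of simulated 2-fold changes were found. That simulation changed 200 of 13182 genes, whereas 4202 of 13328 were called at 12 h in the data, so the share does not carry over. Changes under 2-fold at a single time were called for *Ldha*, *Vegfa* and *Egln3*.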
